A study of Mus musculus with 12 samples.

Results

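The laminin chains are 9 genes of the read count table, taken by their symbols: the alpha chains Lama1, Lama2, Lama3, Lama4 and Lama5, the beta chains Lamb1, Lamb2 and Lamb3, and the gamma chain Lamc1. They are 9 of 24495 genes in the table, and all 9 were among the 15532 genes with enough reads to be tested. RNA-seq was done on CCE-Nanog-GFP mESCs, a mouse embryonic stem cell (mESC) line that carries a GFP reporter of Nanog. Undifferentiated mESCs kept with LIF (Day 0) were compared with embryoid bodies, free-floating aggregates of differentiating cells, after 2 and 4 days with all-trans retinoic acid and no LIF (Day 2, Day 4). Each day was sampled in shSC, which carries a scramble shRNA (titled scr and given the genotype WT in the labels), and in shCTSL, which carries an shRNA against the protease cathepsin L (CTSL KD). Both are lines transduced with lentivirus and selected with puromycin, and the labels do not name the shRNA used. Each of the 6 groups has 2 replicates. The 12 libraries hold 11171111 to 27155553 counted reads.

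Laminins are secreted proteins of the basement membrane, each a cross-shaped trimer of 1 alpha, 1 beta and 1 gamma chain. The alpha chain carries most of the binding to cell receptors, among them integrins, dystroglycan and Bcam. The trimer is put together inside the cell, and an alpha chain can leave the cell alone more readily than a beta or gamma chain can. Laminins made of Lamb1 and Lamc1 with Lama1 or Lama5 are the first of the mouse embryo, where Lama1 marks the matrix laid down by the endoderm and Lama5 spreads later. Lama2 is the chain of muscle and nerve sheaths, Lama4 that of endothelium and mesenchyme, Lamb2 that of synapses and the kidney filter, and Lama3 and Lamb3 are chains of the laminin of stratified epithelia.

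The promoter windows of Lamb1, Lamb2 and Lama5 are shown because the first 2 of these genes rose in both lines while Lama5 was not called changed. They are RefSeq windows of 300 bases, from 250 before to 50 after a start site, on GRCm38.p6 and not mm9, each written 5′ to 3′ on the strand of the gene. Capitals mark GC boxes, the letters GGGCGG on either strand.
Lamb1, chr12:31265043-31265342 (+ strand): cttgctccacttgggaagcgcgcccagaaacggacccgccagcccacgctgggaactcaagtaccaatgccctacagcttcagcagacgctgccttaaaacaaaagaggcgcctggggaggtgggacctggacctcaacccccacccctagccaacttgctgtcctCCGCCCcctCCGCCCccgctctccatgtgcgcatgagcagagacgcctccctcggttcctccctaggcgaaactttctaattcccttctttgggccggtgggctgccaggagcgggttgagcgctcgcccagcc
Lamb2, chr9:108479612-108479911 (+ strand): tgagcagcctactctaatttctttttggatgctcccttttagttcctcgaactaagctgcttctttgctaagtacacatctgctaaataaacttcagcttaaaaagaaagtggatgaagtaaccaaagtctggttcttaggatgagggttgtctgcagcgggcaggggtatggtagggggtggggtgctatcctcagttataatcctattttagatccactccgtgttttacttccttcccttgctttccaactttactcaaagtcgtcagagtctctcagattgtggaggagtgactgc
Lama5, chr2:180225810-180226109 (- strand): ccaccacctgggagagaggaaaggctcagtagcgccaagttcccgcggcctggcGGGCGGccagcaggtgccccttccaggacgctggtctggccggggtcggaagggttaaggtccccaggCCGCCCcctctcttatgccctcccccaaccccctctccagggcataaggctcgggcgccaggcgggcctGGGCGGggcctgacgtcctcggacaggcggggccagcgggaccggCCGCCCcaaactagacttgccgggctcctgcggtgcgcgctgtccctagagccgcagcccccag
The Lamb1 window holds 2 GC boxes and the Lama5 window 4, while that of Lamb2 holds none. GGGCGG is present in 35.63% of the 32817 windows of the table. The windows are 63.7% G and C for Lamb1, 44% for Lamb2 and 72.7% for Lama5, against a median of 52.67% over all windows. The table has windows for 5 of the chains, the others being Lama2, with 1 GC box, and Lamb3, with none in either of its windows. Also searched on both strands were TGATAA and AGATAA (letters bound by GATA factors), AGGTCA (an element of retinoic acid receptors), ATTGTT (SOX factors) and TATAAA (the TATA box). Those letters occur in 9.062, 11.18, 16.26, 10.72 and 13.62% of all windows, and none of them was found in the windows of these 5 chains. A match of letters is a description of the window, and no match says nothing of the factor.

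Ctsl was measured first, as a check of the labels. Levels are given as normalized CPM, the reads of a gene scaled to the library total with TMM factors. At Day 0 the shSC libraries held 142 ± 7.15 normalized CPM of Ctsl and the shCTSL libraries 38.4 ± 1.23 (SD, n = 2 for every group). The values were 380 ± 15.8 and 183 ± 39.0 at Day 2, and 453 ± 42.9 and 255 ± 3.31 at Day 4. Ctsl was called lower in shCTSL at Day 0 (-1.89 on the log2 scale, edgeR adjusted p = 0.00246) and Day 2 (-1.06, 0.0342), and at Day 4 it was lower in both libraries but not called (-0.83, 0.0896). The difference of Ctsl at Day 2 was -0.86 to -1.28 in the fits that left out 1 library, and its call was lost in 10 of these 12 and with a replicate block (adjusted p = 0.0631 by edgeR). That of Day 0 was lost without either shCTSL Day 0 library (0.117 and 0.129), and Day 4 was called with DESeq2 (3.1e-05) and without either shCTSL Day 2 library. The replicates of shCTSL Day 2 stood apart from those of every other group: the SD of the log2 ratio between replicates was 0.621 over 13717 genes there and 0.155 to 0.233 in the other 5 groups. For Lamc1 the ratio of replicate 1 to replicate 2 in that group was -1.25 on the log2 scale, for Lama5 -0.97 and for Lama1 -0.62, while it was -0.10 for Lamb2 and -0.18 for Lamb1. In shCTSL Day 2 replicate 1, genes with over 5000 exonic bases stood lower than genes with under 2000 by 0.79 on the log2 scale relative to the mean library, where replicate 2 had them 0.23 higher. Laminin transcripts are long, and the part of length in the laminin values was not tested beyond the offsets given below. Values of shCTSL Day 2 are given for both replicates.

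All 9 genes were placed with the GENCODE M1 annotation of mm9, the build to which the reads were aligned. Lama1 lies on chr17:68046605-68171985 (+ strand), Lama2 on chr10:26701094-27336748 (- strand), Lama3 on chr18:12492533-12741522 (+ strand), Lama4 on chr10:38685321-38829994 (+ strand) and Lama5 on chr2:179911078-179960564 (- strand). Lamb1 lies on chr12:31950099-32014509 (+ strand), Lamb2 on chr9:108382193-108392861 (+ strand), Lamb3 on chr1:195128151-195170072 (+ strand) and Lamc1 on chr1:155066052-155179916 (- strand). The genes span 10.7 kb (Lamb2) to 635.7 kb (Lama2), and their longest coding transcripts measure 4092 bases (Lamb3) to 11388 bases (Lama5). No exon of the 9 genes overlaps an exon of another gene of the annotation, so reads of neighbouring genes do not enter their counts by that route.

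The first question was which chains the undifferentiated cells express and how the set changes, which needs levels per length. These are normalized CPM per kb of the longest coding transcript (CPM per kb below). In shSC at Day 0, Lamc1 was highest at 109 CPM per kb, followed by Lama5 at 38.4, Lamb1 at 28.7, Lama1 at 22.1 and Lamb2 at 10.8. The 4 other chains were far below, with Lamb3 at 0.466, Lama4 at 0.235, Lama3 at 0.206 and Lama2 at 0.0506 CPM per kb. Neighbours in this order did not overlap between their replicates, other than Lama4 and Lama3. The places of Lamb1 and Lama4 in this order and in those of the later days depend on the length chosen. Their longest coding transcripts measure 5784 and 6046 bases, while all their exonic bases come to 9917 and 12068, which would give lower levels. The shCTSL line gave the same order of the first 6 at Day 0.

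By Day 2 the order of levels had changed. In shSC at Day 2, Lamc1 stood at 82.6 and Lamb1 at 67.2 CPM per kb, followed by Lama1 at 31.1, Lama5 at 29.5 and Lamb2 at 21.9. At Day 4 Lamc1 stood at 90.1 and Lamb1 at 76.3 CPM per kb. Lamb2 at 38.3, Lama5 at 35.8 and Lama1 at 34.6 then could not be put in order, since each overlapped the next. Lama4 at 1.29 and Lama2 at 0.963 CPM per kb also overlapped at Day 4, and Lama3 was last of the 9 at 0.0653. The shCTSL line at Day 4 again had Lamc1 at 74.2 and Lamb1 at 71.0 CPM per kb on top, with overlapping replicates.

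**Figure D1:**
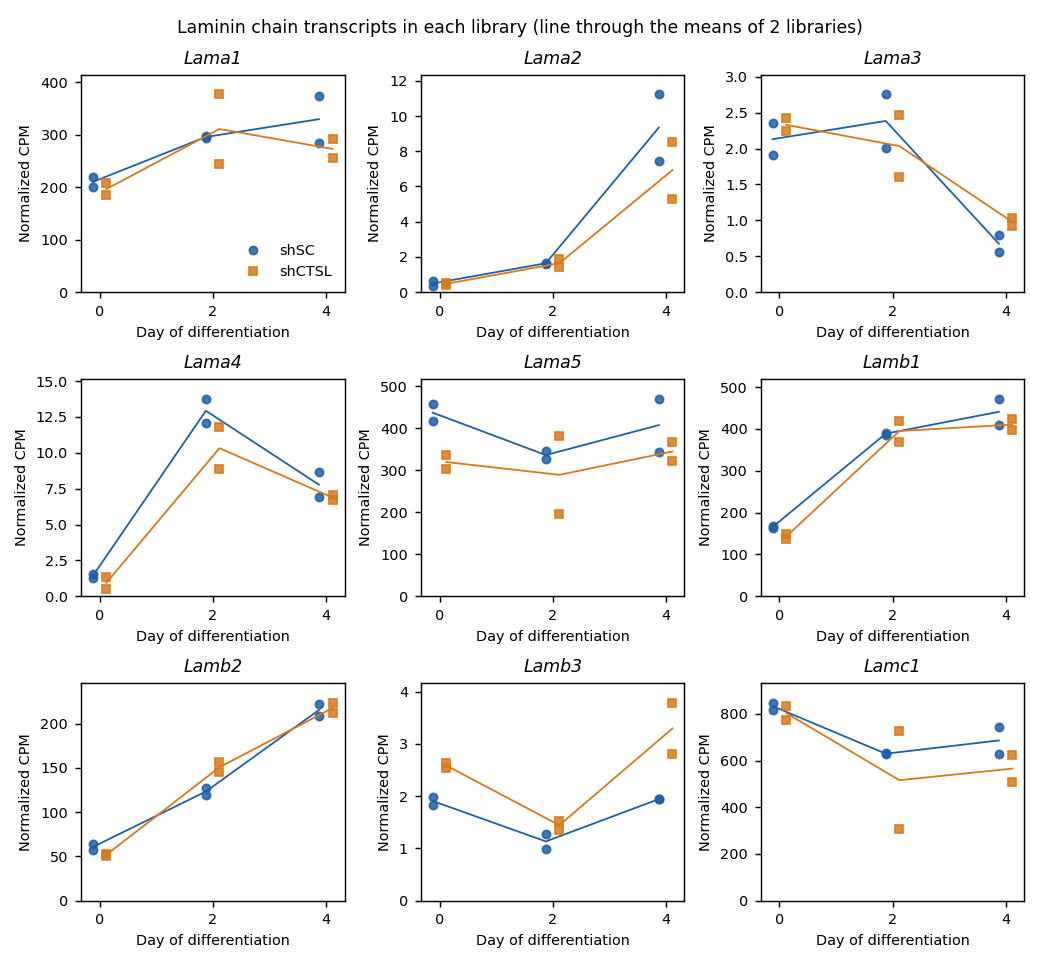
Normalized CPM (vertical axis, from 0, a separate scale for each gene) of the 9 laminin chains against the day of differentiation, with 1 point for each library, blue circles for shSC and orange squares for shCTSL, and a line through the means of 2 libraries. Lama2 and Lamb2 were highest at Day 4 and Lamb1 had risen by Day 2, Lama4 was highest at Day 2, Lama3 was lowest at Day 4, and the shCTSL Day 2 libraries lie far apart for Lama1, Lama5 and Lamc1.

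Lamb1, which pairs with Lamc1 in most laminins of the early embryo, rose early. In shSC its libraries measured 168 and 164 normalized CPM at Day 0, 386 and 391 at Day 2, and 473 and 409 at Day 4. In shCTSL they measured 137 and 149, then 370 and 420, then 424 and 397. Every library of Day 2 and Day 4 was above every library of Day 0, in both lines. Such separation is common here: the groups did not overlap from Day 0 to Day 2 for 89.7% of all genes tested in shSC and 75.8% in shCTSL. The log2 fold change of Lamb1 from Day 0 to Day 2 was 1.23 (SE 0.11, adjusted p = 6.2e-06) in shSC and 1.47 (SE 0.11, adjusted p = 1.99e-06) in shCTSL, by edgeR's quasi-likelihood test with Benjamini-Hochberg adjustment over all genes tested, the test used throughout. From Day 0 to Day 4 it was 1.41 (SE 0.11) and 1.52 (SE 0.11), and neither line was called from Day 2 to Day 4.

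Lamb2, the beta chain of synaptic and kidney laminins, rose in steps. Its shSC libraries measured 57.3 and 63.6 normalized CPM at Day 0, 127 and 119 at Day 2, and 222 and 209 at Day 4. Those of shCTSL measured 52.8 and 50.8, 145 and 156, and 224 and 211. The 3 days did not overlap in either line. Lamb2 changed from Day 0 to Day 4 by 1.83 (SE 0.10, adjusted p = 1.83e-07) on the log2 scale in shSC and by 2.07 (SE 0.11, adjusted p = 1.02e-07) in shCTSL. From Day 2 to Day 4 it was 0.81 (SE 0.10, adjusted p = 0.000259) in shSC and 0.53 (SE 0.10, adjusted p = 0.0032) in shCTSL, the second of which is under the 1.5-fold (0.585 on the log2 scale) that a call requires.

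Lama2, the muscle and nerve sheath chain, had the largest log2 fold change of the 9 from Day 0 to Day 4 but few reads. Its shSC libraries held 8 and 6 reads at Day 0, 50 and 37 at Day 2, and 169 and 162 at Day 4, or 0.610 and 0.372, 1.66 and 1.62, and 7.47 and 11.2 normalized CPM. Those of shCTSL held 7 and 4, 23 and 44, and 158 and 108 reads. The days did not overlap in normalized CPM in either line, although Day 0 rests on a handful of reads. From Day 0 to Day 4 Lama2 rose by 4.25 (SE 0.39, adjusted p = 4.87e-06) on the log2 scale in shSC and by 3.83 (SE 0.42, adjusted p = 1.81e-05) in shCTSL. The step from Day 2 to Day 4 was 2.49 (SE 0.30) and 2.05 (SE 0.31), and that from Day 0 to Day 2 was 1.76 (SE 0.45) and 1.78 (SE 0.49), all called. Without shSC Day 0 replicate 2 the Day 0 to Day 2 step of shSC lost its call, at 1.46 with an adjusted p of 0.0618 by the same test.

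Lama4, the endothelial and mesenchymal chain, peaked at Day 2. The shSC libraries measured 1.30 and 1.55 normalized CPM at Day 0, 12.1 and 13.8 at Day 2, and 6.89 and 8.67 at Day 4. The shCTSL libraries measured 0.522 and 1.37, then 8.86 and 11.8, then 7.04 and 6.74. In both lines Day 2 was above Day 4 and Day 4 above Day 0, with no overlap. By Day 2 Lama4 had risen by 3.17 (SE 0.29, adjusted p = 7.08e-06) on the log2 scale in shSC and by 3.54 (SE 0.33, adjusted p = 8.57e-06) in shCTSL. From Day 2 to Day 4 it was -0.74 (SE 0.23, adjusted p = 0.0375) in shSC, called, and -0.59 (SE 0.24, adjusted p = 0.0892) in shCTSL, not called. The call of the fall in shSC is a narrow one, since it was lost in 8 of the 12 fits that each left out 1 library, with log2 fold changes of -0.58 to -0.91, the lowest in size without shSC Day 4 replicate 1 (adjusted p = 0.255 by the same test) and the highest without its replicate 2 (0.0648). In shCTSL, leaving out Day 2 replicate 1 gave a call, at -0.80.

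Lama1, the alpha chain of the first embryonic laminin, rose by a smaller amount. Its shSC libraries measured 219 and 201 normalized CPM at Day 0, 295 and 297 at Day 2, and 374 and 285 at Day 4. Those of shCTSL measured 185 and 208, 245 and 377, and 291 and 255. Both later days were above Day 0 without overlap, and overlapped each other. The log2 fold change from Day 0 to Day 4 was 0.65 (SE 0.20, adjusted p = 0.0132) in shSC, called, and 0.47 (SE 0.20, adjusted p = 0.0527) in shCTSL, not called. From Day 0 to Day 2 it was 0.49 (SE 0.20, adjusted p = 0.0477) in shSC, under 1.5-fold, and 0.66 (SE 0.20, adjusted p = 0.0133) in shCTSL, called. These calls stand near the threshold: that of shSC was lost without Day 0 replicate 2 (adjusted p = 0.0782 by the same test) or Day 4 replicate 1 (0.124), and came to 0.32 on the log2 scale with offsets for exonic length. That of shCTSL was lost without Day 0 replicate 1 (adjusted p = 0.0887) or Day 2 replicate 2 (0.32 on the log2 scale, against 0.66).

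Lamc1, the gamma chain shared by most laminins, and Lama5, the widespread alpha chain, had the highest counts of the 9 at Day 0 and were not called in any comparison between days. Lamc1 measured 848 and 819 normalized CPM in shSC at Day 0, 631 and 628 at Day 2, and 743 and 630 at Day 4. In shCTSL it measured 772 and 835, 306 and 726, and 623 and 509. Both later days were below Day 0 without overlap in both lines, yet the log2 fold change from Day 0 to Day 4 was -0.28 (SE 0.30, 95% interval -0.95 to 0.39) in shSC and -0.51 (SE 0.30, -1.18 to 0.16) in shCTSL. Lama5 measured 457 and 417 normalized CPM in shSC at Day 0, 345 and 327 at Day 2, and 471 and 344 at Day 4. In shCTSL it measured 302 and 337, 196 and 382, and 368 and 321, with overlap between all days. Its log2 fold change from Day 0 to Day 4 was -0.10 (SE 0.26, -0.68 to 0.48) and 0.11 (SE 0.26, -0.47 to 0.69). Lamc3, a gamma chain outside the 9, held 3 and 1 reads in shSC and 1 and 0 in shCTSL at Day 0, and 18 to 70 reads in the later libraries.

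The shCTSL Day 2 replicates decide what Lamc1 and Lama5 show from Day 0 to Day 2 in that line. Lamc1 changed by -0.64 (SE 0.30, adjusted p = 0.087 by edgeR) with both replicates, by -1.39, called, with replicate 1 alone and by -0.10 with replicate 2 alone. With no filter on low counts it was called at -0.60 (adjusted p = 0.0256 by edgeR). Lama5 changed by -0.14 (SE 0.26, adjusted p = 0.648 by edgeR) with both, by -0.70, called, with replicate 1 alone and by 0.30 with replicate 2 alone. With offsets for exonic length the Lamc1 change of shCTSL was called, at -0.74 from Day 0 to Day 2 and -0.71 from Day 0 to Day 4.

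Lama3 and Lamb3, the alpha and beta chains of the laminin of stratified epithelia, were near the limit of what these libraries show, with 8 to 83 reads a library for Lama3 and 22 to 70 for Lamb3. Lama3 measured 1.91 and 2.35 normalized CPM in shSC at Day 0, 2.76 and 2.01 at Day 2, and 0.795 and 0.555 at Day 4. In shCTSL it measured 2.24 and 2.42, 1.6 and 2.47, and 0.92 and 1.03. Day 4 was below all other libraries in both lines. Against Day 0, the Day 4 change of Lama3 was -1.61 (SE 0.34, adjusted p = 0.00161) on the log2 scale in shSC and -1.24 (SE 0.32, adjusted p = 0.00629) in shCTSL. From Day 2 to Day 4 it was -1.78 (SE 0.31) and -1.08 (SE 0.30), both called, the second lost when Day 2 replicate 2 was left out (-0.71, adjusted p = 0.125 by the same test) or either Day 4 replicate of shCTSL (0.134 and 0.0858).

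Lamb3 dipped at Day 2. Its shSC libraries measured 1.83 and 1.98 normalized CPM at Day 0, 0.996 and 1.27 at Day 2, and 1.94 and 1.94 at Day 4. Those of shCTSL measured 2.54 and 2.63, 1.35 and 1.53, and 3.79 and 2.80. Day 2 was below both other days without overlap in each line. In shSC the log2 fold change was -0.76 (SE 0.25, adjusted p = 0.0206) from Day 0 to Day 2 and 0.79 (SE 0.24, adjusted p = 0.0316) from Day 2 to Day 4. It was -0.83 (SE 0.25, adjusted p = 0.014) and 1.18 (SE 0.23, adjusted p = 0.00348) in shCTSL, and all 4 were called. Both shSC calls were lost with DESeq2 (adjusted p = 0.081 and 0.0845) and without the filter on low counts. Leaving out single libraries ended the fall of shSC in 3 of 12 fits (without Day 0 replicate 1 or 2, or Day 2 replicate 1), its rise in 5 and the fall of shCTSL in 3, with adjusted p-values by the same test of up to 0.147, 0.227 and 0.0567.

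Counted together, 5 of the 9 chains changed from Day 0 to Day 2 in shSC, where 54.6% of all genes tested changed. Of these, 4 rose (Lama2, Lama4, Lamb1, Lamb2; 29.3% of all genes rose) and 1 fell (Lamb3; 25.3% fell), and without shSC Day 0 replicate 2 the count was 3. From Day 2 to Day 4 it was 5, against 23.8% of all genes, with Lama2, Lamb2 and Lamb3 upward (11.4%) and Lama3 and Lama4 downward (12.4%). That count was 3 without shSC Day 0 replicate 2 or without any 1 of the 4 libraries compared. From Day 0 to Day 4 it was 6, against 60.7%, with Lama1, Lama2, Lama4, Lamb1 and Lamb2 upward (32.1%) and Lama3 downward (28.7%).

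In shCTSL 6 of 9 chains changed from Day 0 to Day 2 (background 55.5%), 5 upward with Lama1 added to the 4 of shSC (30.9%) and Lamb3 downward (24.6%). From Day 2 to Day 4 it was 3 (23.4%), with Lama2 and Lamb3 upward (11%) and Lama3 downward (12.4%). From Day 0 to Day 4 it was 5 (59.9%), with Lama2, Lama4, Lamb1 and Lamb2 upward (32.3%) and Lama3 downward (27.6%). The groups of 2 libraries did not overlap for 8, 6 and 7 of the 9 chains in these 3 comparisons in shSC, against 89.7, 77.6 and 89.7% of all genes, and for 7, 5 and 8 in shCTSL, against 75.8, 54.7 and 88.2%. The shares from Day 0 lie near those of all genes in both lines. The median log2 fold change of the chains from Day 0 to Day 4 was 0.65 in shSC and 0.47 in shCTSL, where the median of all genes was 0.03 and 0.06.

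**Figure D2:**
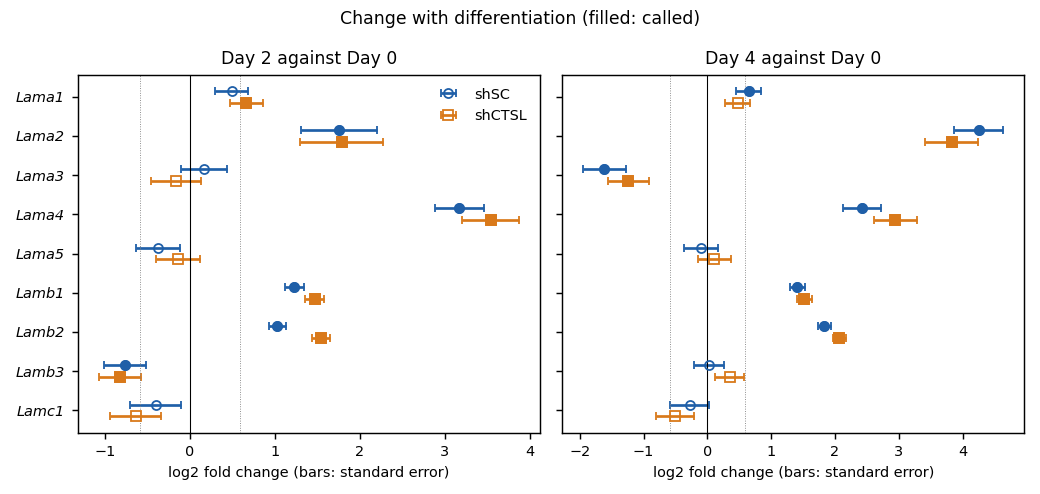
Log2 fold change (horizontal axis, bars are 1 standard error of the fit over 12 libraries) of each laminin chain at Day 2 and at Day 4 against Day 0, blue circles for shSC and orange squares for shCTSL, filled where called, with dotted lines at 1.5-fold. Lama2, Lama4, Lamb1 and Lamb2 lie to the right and are called in both panels and both lines, and Lama3 lies to the left at Day 4.

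The balance of chains within a library moved with the days. The beta chains, summed per kb, came to 39.6 and 40.2 CPM per kb in shSC at Day 0, 89.7 and 89.1 at Day 2, and 122 and 108 at Day 4. In shCTSL they came to 33.8 and 35.4, 90.1 and 101, and 114 and 107. Both later days were above Day 0 without overlap in each line. The alpha chains summed to 63.6 and 58.3 CPM per kb in shSC at Day 0, 63.7 and 62.6 at Day 2, and 82.6 and 62.8 at Day 4, with overlap between the days. In shCTSL they summed to 46.3 and 52, 44.7 and 75.6, and 65 and 56.7, so that Day 4 lay above Day 0 without overlap and Day 2 overlapped both.

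Per kb of the longest coding transcript, Lamc1 was in excess of Lamb1, its partner, in undifferentiated cells, and the pair came closer to equal afterwards. How near to equal depends on the length chosen. The transcript measures 5784 bases for Lamb1 and 7622 for Lamc1, where all exonic bases come to 9917 and 8272. The ratio of Lamc1 to Lamb1 went from 3.84 and 3.78 in shSC at Day 0 to 1.24 and 1.22 at Day 2 and 1.19 and 1.17 at Day 4. In shCTSL it went from 4.26 and 4.26 to 0.627 and 1.31 and then 1.11 and 0.972. Day 0 lay above all later libraries in each line. The value of 0.627 belongs to the Day 2 replicate in which long genes stood low.

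Among the alpha chains, Lama1 rose relative to Lama5 after Day 0, while Lama5 itself was called in no comparison between days. Lama1 over Lama5 was 0.575 and 0.576 in shSC at Day 0, 1.02 and 1.09 at Day 2, and 0.952 and 0.991 at Day 4. In shCTSL it was 0.732 and 0.739, 1.5 and 1.18, and 0.946 and 0.950. Day 0 was below both later days without overlap in each line, and Lama2, Lama3 and Lama4 together stayed a small part: Lama4, the largest of them, was at most 3.65% of the alpha sum. Among the beta chains, Lamb1 over Lamb2 was 2.84 and 2.51 in shSC at Day 0, 2.95 and 3.19 at Day 2, and 2.07 and 1.91 at Day 4, and 1.84 and 1.83 in shCTSL at Day 4. These ratios compare transcripts, were not tested, and say nothing of how much of each chain protein was made or secreted.

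**Figure D3:**
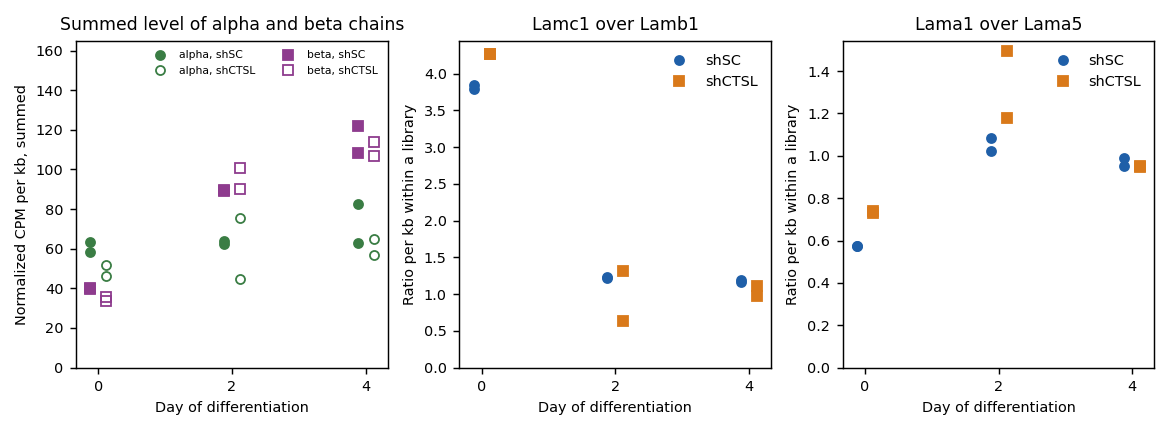
Summed level of the alpha and of the beta chains (left, normalized CPM per kb, filled for shSC and open for shCTSL) and, within each library, the ratio per kb of Lamc1 to Lamb1 (middle) and of Lama1 to Lama5 (right), against the day of differentiation, with 1 point for each library. Lamc1 over Lamb1 was 3.78 to 4.26 at Day 0 and at most 1.31 on the later days, and 1 shCTSL Day 2 library stands apart at 0.627.

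The markers of cell types moved over the same days. From Day 0 to Day 4, 32.1% of all genes tested rose and 28.7% fell in shSC, and 32.3% and 27.6% in shCTSL. The 6 markers of pluripotent cells summed to 5015 to 5156 normalized CPM in shSC at Day 0 and 286 to 328 at Day 4, and all 6 fell in both lines. The 8 markers of primitive endoderm, the lineage in which Lama1, Lamb1 and Lamc1 are classically high, summed to 15.1 to 15.2 in shSC at Day 0, 303 in both libraries at Day 2 and 462 to 507 at Day 4, and to 17 to 19, 245 to 308 and 457 to 515 in shCTSL. All 8 rose in both lines from Day 0 to Day 4. Fibroblast or mesenchyme markers, 5 of 5, rose from a sum of 7.99 to 10.1 to one of 414 to 416 in shSC, and 4 of the 5 endothelial markers rose while Pecam1 fell. Col3a1 made up most of the mesenchyme sum at Day 4, at 333 normalized CPM in shSC. Of the 3 parietal endoderm markers all rose in both lines, from a sum of 2.67 to 2.91 to one of 221 to 228 in shSC, and of the 6 visceral endoderm markers 5 rose in shSC and 6 in shCTSL, with Ttr at 0 in all 4 Day 0 libraries.

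The stratified epithelium markers Krt5, Krt14, Trp63 and Krt15, listed because they define the tissue of Lama3 and Lamb3, summed to 0.457 to 0.558 normalized CPM in shSC at Day 0 and 8.57 to 10.9 at Day 4, and to 14 to 15.9 in shCTSL at Day 4. Only 2 of the 4 had enough reads to be tested, and Krt15 made up most of that sum. The 4 smooth muscle markers summed to 98.4 to 130 in shSC and 276 to 315 in shCTSL at Day 4, mostly from Tagln and Acta2. None of the 4 was called between the lines at Day 4, and Tagln was called higher in shCTSL in the mean over the 3 days. The 5 neural markers were mixed: 2 rose and 1 fell in shSC from Day 0 to Day 4, and 3 rose and 1 fell in shCTSL. Of all genes tested, 60.7 and 59.9% were called in either direction in the 2 lines. In such bulk samples, more cells of a type and more RNA of a chain per cell cannot be told apart, and the part of these cell types in the laminin values was not tested.

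The second comparison was that of shCTSL with shSC on the same day. None of the 9 chains was called at Day 0, Day 2 or Day 4, or in the mean over the 3 days, by edgeR, where 0.0386, 0.0644, 0.0129 and 0.270% of all genes were called. At an unadjusted p under 0.05 the count was 0, 1 (Lamb2), 1 (Lamb3) and 1 (Lamb3) of 9, against 7.26, 19.4, 12.2 and 22.6% of all genes, and with DESeq2 no chain was called on any day or in the mean. At Day 0 the log2 fold changes ran from -0.69 (Lama4, SE 0.42, 95% interval -1.62 to 0.25) to 0.43 (Lamb3, SE 0.25, -0.12 to 0.98). At Day 2 they ran from -0.32 (Lama4, SE 0.23, -0.83 to 0.19) to 0.37 (Lamb3, SE 0.25, -0.18 to 0.92). At Day 4 they ran from -0.42 (Lama2, SE 0.27, -1.02 to 0.17) to 0.76 (Lamb3, SE 0.22, 0.27 to 1.25).

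Lamb3 was the chain furthest from 0 at Day 4, and its shCTSL libraries lay above those of shSC on each of the 3 days. Of the 9 chains, 4 did not overlap between the lines at Day 0, 3 at Day 2 and 3 at Day 4, against 51.3, 45.5 and 61.5% of all genes. Its Day 4 difference had an adjusted p of 0.264 by edgeR, and the mean over the days was 0.52 (SE 0.14, adjusted p = 0.13). Left without either shCTSL Day 2 library, a group that is not in the Day 4 comparison but feeds the shared spread, the Day 4 difference was called at 0.76 (adjusted p = 0.0253 by the same test without replicate 1, 0.0267 without replicate 2 and 0.0243 without both). Those libraries held 44 and 28 reads of Lamb3 in shSC and 70 and 57 in shCTSL.

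For the chains with many reads the intervals are narrower. At Day 4 the difference between lines was -0.10 (95% interval -0.35 to 0.14) for Lamb1, 0.01 (-0.21 to 0.24) for Lamb2, -0.27 (-0.71 to 0.16) for Lama1, -0.24 (-0.82 to 0.34) for Lama5 and -0.28 (-0.95 to 0.39) for Lamc1. Differences of more than 1.5-fold at Day 4 thus lie outside the intervals of Lamb1 and Lamb2 but inside those of Lama1, Lama5 and Lamc1. At Day 2 Lamb2 was 0.29 higher in shCTSL (SE 0.10, adjusted p = 0.222 by edgeR), with 145 and 156 normalized CPM against 127 and 119. The Day 2 difference of Lamc1 was -0.29 (-0.96 to 0.38) and that of Lama5 -0.22 (-0.79 to 0.36). With Day 2 replicate 1 of shCTSL alone they were -1.04 for Lamc1 and -0.78 for Lama5. Replicate 2 alone gave 0.21 and 0.19.

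**Figure D4:**
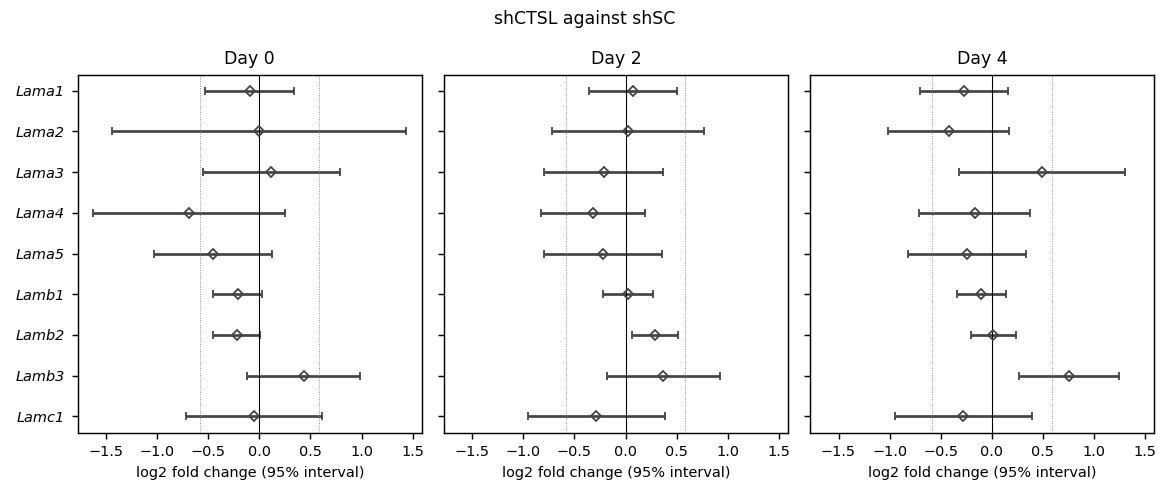
Log2 fold change of shCTSL against shSC (horizontal axis, bars are the 95% interval of the fit over 12 libraries) for each laminin chain at Day 0, Day 2 and Day 4, with dotted lines at 1.5-fold. The intervals of Lamb2 at Day 2 and Lamb3 at Day 4 leave out 0, and none of the 27 differences was called after adjustment over all genes tested.

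Whether the change over days differed between the lines was tested as an interaction. For Day 4 against Day 0, none of 9 chains was called by edgeR, where 0.00644% of all genes were, and none had an unadjusted p under 0.05, against 6.71% of all genes. The differences ran from -0.42 (Lama2, SE 0.69) to 0.52 (Lama4, SE 0.49). For Day 4 against Day 2, they ran from -0.45 (Lama2, SE 0.43) to 0.70 (Lama3, SE 0.45), again with none called and none at an unadjusted p under 0.05, as for all genes, of which 0 were called (0 to 2323 with single libraries left out, the most without shCTSL Day 2 replicate 2) and 4.85% had such a p. A call that stands in 1 line only, such as that of Lama1 from Day 0 to Day 4 in shSC, is therefore not shown to differ between shSC and shCTSL. The difference between the lines in the change from Day 0 to Day 2, where Lama1 was called in shCTSL only, was not tested. In the interaction of Day 4 with Day 2, Lama1 was called without shCTSL Day 2 replicate 1 and Lamc1 without replicate 2.

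The partners of laminin in the basement membrane are the type IV collagen network, the nidogens that link it to laminin, and the proteoglycans. Of 15 such genes, 8 rose and 1 fell from Day 0 to Day 4 in shSC, and 7 rose and 1 fell in shCTSL, with a median log2 fold change of 1.36 and 1.58. Of all genes 32.1% rose and 28.7% fell in shSC, 32.3% and 27.6% in shCTSL, so that the share called, at 60.7 and 59.9% of all genes, was near that of the partners. The 4 most abundant were Col18a1, Agrn, Hspg2 and Nid2, and none of them was called from Day 0 to Day 4, although 3 were called over a shorter step. Hspg2, the proteoglycan perlecan, changed by -0.22 (SE 0.24) in shSC and -0.19 (SE 0.24) in shCTSL from Day 0 to Day 4, but fell from Day 0 to Day 2, by 0.63 (SE 0.24, adjusted p = 0.0401 by edgeR) in shSC and by 0.62 (SE 0.24, adjusted p = 0.0428) in shCTSL. Both Hspg2 calls were lost in 11 of the 12 fits that left out 1 library. Col18a1, the collagen XVIII chain, fell from Day 2 to Day 4 by 0.62 (SE 0.12, adjusted p = 0.00274 by edgeR) in shSC and by 0.99 (SE 0.12, adjusted p = 0.000195) in shCTSL, after a rise by Day 2 called in shCTSL only (0.67, SE 0.12). The Col18a1 fall of shSC passed under 1.5-fold without Day 2 replicate 1 (-0.57) or Day 4 replicate 2 (-0.58), and the rise of shCTSL without Day 2 replicate 2 (0.50). Agrn, which ties laminin to dystroglycan, rose by Day 2 by 0.69 (SE 0.21, adjusted p = 0.0151 by edgeR) in shSC and 0.80 (SE 0.21, adjusted p = 0.00696) in shCTSL. The Agrn call of shSC was lost without Day 0 replicate 1 (adjusted p = 0.0817 by the same test), Day 0 replicate 2 (0.053) or Day 2 replicate 1 (0.0826), and that of shCTSL without Day 2 replicate 2 (0.34 on the log2 scale).

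Most of the genes that rose were type IV collagen chains. Named after their values were seen, Col4a1 and Col4a2, the main type IV collagen chains, rose by 4.13 (SE 0.24) and 4.81 (SE 0.16) on the log2 scale in shSC and by 3.90 (SE 0.24) and 4.5 (SE 0.16) in shCTSL from Day 0 to Day 4. Col4a4 (in shSC alone), Col4a5, Col4a6, Fbln1, Pxdn and Sparc were the other genes that rose. The nidogen Nid1 was the gene that fell, by 1.84 (SE 0.33, adjusted p = 0.000667 by edgeR) in shSC and by 1.41 (SE 0.33, adjusted p = 0.00345) in shCTSL. Nid2, the more abundant nidogen in these libraries, changed by -0.45 (SE 0.27) and -0.24 (SE 0.27) and was not called.

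Of 7 laminin receptor genes, 0 rose and 4 fell from Day 0 to Day 4 in each line, with a median log2 fold change of -1.15 in shSC and -0.86 in shCTSL. Among all genes, 32.1% rose and 28.7% fell in shSC, and 32.3% and 27.6% in shCTSL, so that the share called in either direction (60.7 and 59.9% of all genes) was near that of the receptors. The 4 were Bcam, a receptor of Lama5, and the integrin chains Itga6, Itga7 and Itgb4, the last 3 named after their values were seen. Bcam, at 386 ± 8.27 normalized CPM in shSC at Day 0 and 72.4 ± 4.56 at Day 4 (SD, n = 2), fell by 2.41 (SE 0.14, adjusted p = 2.29e-07 by edgeR) on the log2 scale, and by 2.25 (SE 0.14) in shCTSL. Itga6, part of the main laminin integrins, fell by 2.06 (SE 0.24) and by 2.37 (SE 0.24). Itgb4 rose from Day 0 to Day 2 by 0.71 (SE 0.14, adjusted p = 0.00145 by edgeR) in shCTSL before it fell, with a value of 0.18 (SE 0.14), not called, in shSC. Itgb1, the beta chain that most laminin integrins share, changed by 0.53 (SE 0.12) in both lines, under 1.5-fold, and in shSC passed it narrowly without Day 0 replicate 2 (0.59) or Day 4 replicate 2 (0.63). From Day 2 to Day 4 it rose in shCTSL by 0.60 (SE 0.12, adjusted p = 0.00446 by edgeR), a call lost without Day 2 replicate 1 (0.43) or Day 4 replicate 1 (0.57). Dag1, dystroglycan, rose from Day 0 to Day 2 by 0.75 (SE 0.25, adjusted p = 0.0231 by edgeR) in shSC and by 0.76 (SE 0.25) in shCTSL. The Dag1 call of shSC was lost when any of the 4 libraries compared was left out (adjusted p = 0.0529 to 0.104 by the same test), and that of shCTSL without either Day 0 library or Day 2 replicate 2 (0.18 on the log2 scale).

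Neither the 15 partners nor the 7 receptors held a gene called between the lines on any day.

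**Figure D5:**
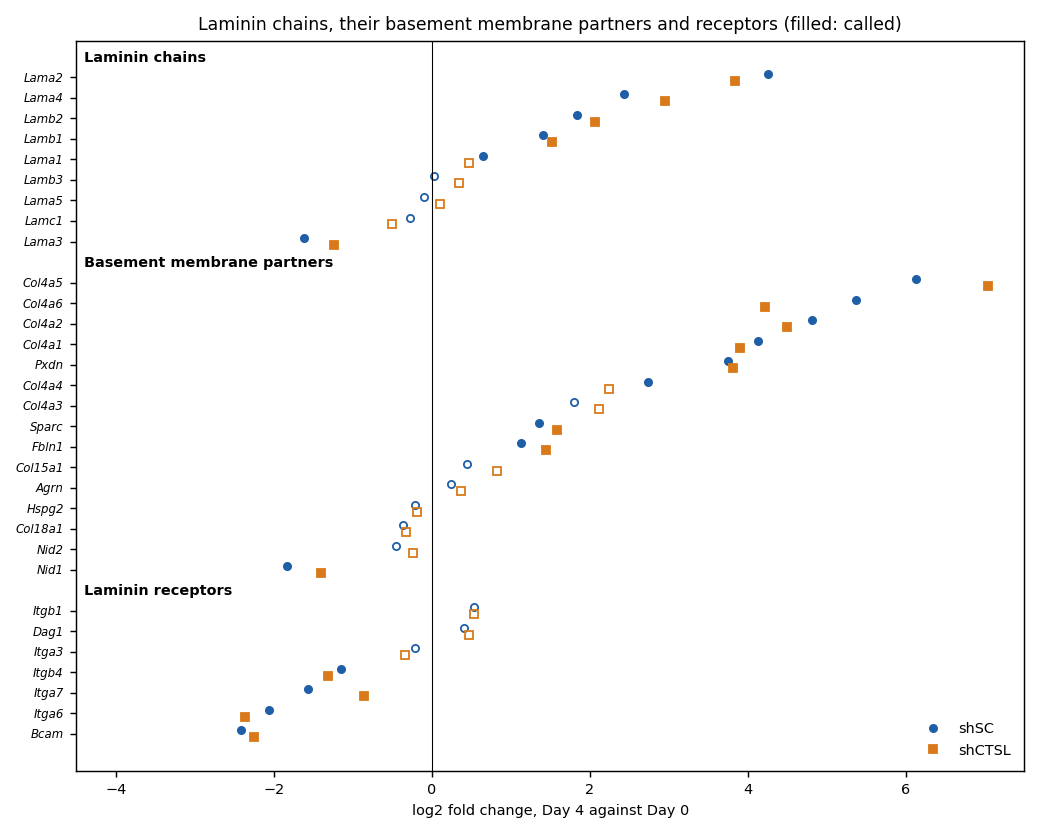
Log2 fold change at Day 4 against Day 0 (horizontal axis) of the 9 laminin chains, 15 basement membrane partners and 7 laminin receptors, each sorted by shSC, blue circles for shSC and orange squares for shCTSL, filled where called. The type IV collagens Col4a1, Col4a2, Col4a5 and Col4a6 lie far to the right and 4 receptors (Bcam, Itga6, Itga7, Itgb4) lie to the left in both lines.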

How the data were processed

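RNA-seq of 12 libraries was analysed. Per the study's methods, the authors prepared directional libraries from poly(A) RNA, mapped reads to mm9 using STAR 2.3.0e, filtered alignments with SAMtools 0.1.19 and assigned them to RefSeq genes with featureCounts 1.6.2. The sources used here do not say whether strand was used in counting. The deposited values are raw counts without normalization. Counts were fitted in R 4.3.3 with edgeR 4.0.16 (quasi-likelihood, TMM factors, filterByExpr with a minimum count of 10, a mean for each of 6 groups, 6 residual degrees of freedom), after the fit had been tested on simulated data. Benjamini-Hochberg adjustment was over 15532 genes. Changes were called where the adjusted p was below 0.05 and the fold change 1.5 or more. The study's cutoff, written 1.5X, can also be read as 1.5 on the log2 scale, which was tried as an alternative. The other alternatives were DESeq2 1.42.0, RLE factors, no filter, the compared libraries alone, a replicate block, offsets for exonic length and each library left out. Leaving out both shCTSL Day 2 libraries was added after seeing the data. Gene lengths came from GENCODE M1 (20561 genes matched on the symbol, 1644 on another name). The members and lists were chosen with earlier results of these data known. All members are named, with Ctsl, Lamc3, up to 4 of the most abundant genes of each list and the 3 genes nearest in pattern to Lama1 and Lamb1. Some genes and 1 list are not reported here. Figures were drawn with matplotlib 3.10.9. The labels number the libraries of a group as replicates, and the study's figure legends call its RNA-seq replicates biological. The methods do not say at which step the replicates were separated. P-values measure the spread between these libraries.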

Additional observations from a re-analysis of the deposited data

How the results depend on the processing

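Every group has 2 libraries, and Lama2, Lama3 and Lamb3 have few reads, which limits their calls. The number of reads did not rank how steady the calls were. When single libraries were left out, the fall of Lama4 from Day 2 to Day 4 in shSC lost its call more often than the rise of Lama2 from Day 0 to Day 4 did. Across the planned and added alternatives, 1725 values of single genes kept direction and call, 129 lost the call, 21 gained it and 13 turned sign. These counts are no rate of error. The higher fold threshold reuses the main fit and can only lose calls, and the fits with 1 library left out share most of their libraries. With offsets for exonic length the sign turned for Lama5 in shCTSL from Day 0 to Day 4 (-0.13) and, between the lines, for Lama5 at Day 2 (0.032) and Day 4 (0.0073) and for Lamb1 at Day 4 (0.12). Lamb2 at Day 4 turned with no filter (-0.016). The other 8 turned when a library was left out, and none of the 13 was called in the fit of all libraries. Leaving out single libraries gave -0.70 to 0.30 for Lama5 in shCTSL from Day 0 to Day 2, -0.34 to 0.11 for Lama5 in shSC from Day 0 to Day 4 and -0.10 to 1.27 for Lama4 in the difference between the lines of the change from Day 0 to Day 4. Between the lines it gave -0.78 to 0.19 for Lama5 and -1.04 to 0.21 for Lamc1 at Day 2, and -0.21 to 0.0007 for Lamb1 and -0.033 to 0.057 for Lamb2 at Day 4. The cause was not tested.

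With a log2 fold change of at least 1.5 required, the chains called were 2 from Day 0 to Day 2 and 2 from Day 2 to Day 4 in shSC, and 3 and 1 in shCTSL, where a higher fold threshold lowers a count by construction. With only the libraries compared, 1 chain (Lama2) was called from Day 2 to Day 4 in shCTSL. With both shCTSL Day 2 libraries left out, 1 chain (Lamb3) was called between the lines at Day 4. Leaving out single libraries gave 3 to 5 chains from Day 0 to Day 2 and 3 to 5 from Day 2 to Day 4 in shSC, 0 to 2 between the lines at Day 2, 0 to 1 at Day 4, and 0 to 1 in the interaction of Day 4 against Day 2.

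Over all genes, the lines differed at Day 0 in 6 genes, with 48 by DESeq2, 29 with no filter, 26 with length offsets, 269 with only the libraries compared and 212 without the shCTSL Day 2 libraries. At Day 2 the count was 10, and in the same order 125, 60, 41 and 0, and at Day 4 it was 2, and 132, 119, 21, 711 and 909. For the mean over the days it was 42, against 128 by DESeq2 and 185 with no filter. Leaving out single libraries gave 0 to 214, 0 to 5012 and 0 to 926 genes on the 3 days and 7 to 1217 for the mean. In the interaction of Day 4 against Day 0 it was 1, against 28 by DESeq2, 7 with no filter, 7 with length offsets, 149 with only the libraries compared and 258 without the shCTSL Day 2 libraries, and in that of Day 4 against Day 2 it was 0, against 11 by DESeq2, with 0 to 268 and 0 to 2323 when single libraries were left out. Within the lines, the higher threshold left 3844, 1462 and 4778 genes of 8477, 3689 and 9435 in shSC and 3981, 1312 and 4697 of 8627, 3630 and 9296 in shCTSL, and the libraries compared alone gave 1201 from Day 2 to Day 4 in shCTSL.

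The labels do not say whether replicates that share a number belong together, and the main fit did not pair them. Over 15 pairs of groups the correlation of their deviations ran from -0.543 to 0.304, and 2 were over 0.1. Such correlations cannot decide whether the replicates were paired. With a replicate block, 6 chains were called from Day 0 to Day 4 in shSC and 6 from Day 0 to Day 2 in shCTSL, and the block changed the call of no chain, but ended that of Ctsl between the lines at Day 2 (-1.06) and those of Hspg2 from Day 0 to Day 2 (-0.63 in shSC, -0.62 in shCTSL). Over all genes the block gave 4, 0 and 1 calls between the lines on the 3 days, 13 for the mean and 0 in the interaction of Day 4 against Day 0.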

Other observations

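Netrins share the N-terminal domain of laminin chains. Of 6 netrin genes, 4 rose from Day 0 to Day 4 in each line, while 2 fell in shSC and 1 in shCTSL, with a median log2 fold change of 2.83 and 3.16. These medians rest in part on genes with few reads at Day 0, where Ntng2 was at 0.400 and Ntn4 at 0.0381 normalized CPM in shSC. The 6 genes summed to 146 to 151 normalized CPM in shSC at Day 0 and to 49.3 to 56.2 at Day 4. Among all genes, 32.1% rose and 28.7% fell in shSC, and 32.3% and 27.6% in shCTSL. Ntn1, the most abundant, went from 143 ± 2.66 normalized CPM in shSC at Day 0 to 48.3 ± 0.0286 at Day 2 and 29.3 ± 1.1 at Day 4 (SD, n = 2), which is -2.29 on the log2 scale (SE 0.11, edgeR adjusted p = 7.07e-08). In shCTSL the change was -2.57 (SE 0.11). Ntn3 rose by 1.67 (SE 0.21) in shSC and by 1.74 (SE 0.21) in shCTSL on the log2 scale.

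The genes outside the 9 chains whose 6 centred group means of log2 normalized CPM lay closest to those of a chain were, for Lama1, Bbs1, Gtf2i and Fbf1, at a root mean square difference of 0.0273 to 0.0403. For Lamb1 they were Zfyve1, Irgq and Hbp1, at 0.0548 to 0.0606. The median difference over 15523 genes was 0.517 and 0.761. All points share the same 12 libraries, and the shCTSL Day 2 replicates enter each as a mean.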
